A study of Mus musculus with 8 samples.

Results

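Open chromatin was compared between mTEC-II and mTEC-IV, 2 populations of medullary thymic epithelial cells sorted from enzyme-digested thymus of C57BL/6 mice. mTEC-II was sorted as CD45 negative, Epcam positive and MHCII high. mTEC-IV was sorted as CD45 negative, Epcam positive, MHCII low, Itgb4 negative and L1cam positive. The assay was ATAC-seq, in which a transposase cuts accessible DNA and leaves adapters at the cut ends, so that read ends pile up where chromatin is open. Each population had 2 libraries, and the comparison thus used 4 of the 8 libraries of the series. The other 4 came from mTEC-I, which is MHCII low and Itgb4 positive, and mTEC-III, which is Ly6D positive, and they entered the estimate of the spread. All 74090 peaks of the merged peak table were considered, of which 58745 passed a filter on low values, and 15008 of 15695 genes with a peak within 10 kb of their transcription start site (TSS) were tested as well. The labels describe each library as enriched for its population. They do not say whether the 2 libraries of a population had different source mice, and the p-values therefore rest on the spread between libraries, which may be technical. In sorted bulk samples, a larger share of cells with an open site and a wider opening of the site in each cell cannot be told apart.

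The medulla of the thymus displays self antigens to developing T cells. Its MHC class II high epithelial cells include those that express Aire, a regulator that turns on genes otherwise restricted to peripheral tissues, and they carry the machinery to present peptides to CD4 T cells. Class II genes are switched on through the coactivator Ciita, and Aire depends on signals through RANK (Tnfrsf11a) and NF-kB. Tuft cells are chemosensory epithelial cells that use the taste pathway (Tas receptors, gustducin, Plcb2 and Trpm5), make the cytokine Il25, and need the POU factor Pou2f3. The populations were first told apart by single-cell transcripts, and mTEC-IV is known as the tuft-like one. The question for the pair is which regions differ in accessibility between the antigen-presenting and the tuft-like population.

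Sequences of 7 promoters are shown, chosen because a peak within 300 bp of their TSS was called and they held a match to a motif of known factors of these cells. Most promoters with a called peak held no such match for NF-kB or POU factors, as the shares given further on show. Sequences are from RefSeq on build GRCm38.p6, run from 250 bases before to 50 bases after the TSS, and are written 5′ to 3′ on the strand of the gene. For the class II gene H2-Eb1 the capitals mark every match on either strand to the X box core (TAGCAAC) and the Y box (ATTGG), motifs of the class II promoter module. The X box match starts 93 bases before the TSS at chr17:34305617-34305916. The Y box word matches 59 bases before the TSS and, on the opposite strand, 35 bases before it. This short word is in 37.4% of all RefSeq promoters, and which match belongs to the module was not tested.
H2-Eb1: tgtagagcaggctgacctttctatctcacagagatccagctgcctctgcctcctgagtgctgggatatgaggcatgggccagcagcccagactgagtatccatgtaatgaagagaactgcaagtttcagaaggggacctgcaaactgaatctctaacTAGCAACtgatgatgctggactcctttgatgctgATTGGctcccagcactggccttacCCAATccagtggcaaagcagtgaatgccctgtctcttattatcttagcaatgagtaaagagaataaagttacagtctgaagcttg
For Nfkbia, the inhibitor of NF-kB that NF-kB itself induces (chr12:55492598-55492897), and Cxcl10, an inducible chemokine (chr5:92348840-92349139), the capitals mark matches to the NF-kB motif GGANTTTCC on either strand, which start 178 and 29 bases before the TSS of Nfkbia and 158 bases before that of Cxcl10.
Nfkbia: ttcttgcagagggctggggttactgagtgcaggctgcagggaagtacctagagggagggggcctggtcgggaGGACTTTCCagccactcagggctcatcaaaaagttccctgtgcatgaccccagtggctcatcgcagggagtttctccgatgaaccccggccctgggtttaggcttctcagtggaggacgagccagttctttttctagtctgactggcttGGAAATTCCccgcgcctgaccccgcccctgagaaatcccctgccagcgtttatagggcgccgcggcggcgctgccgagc
Cxcl10: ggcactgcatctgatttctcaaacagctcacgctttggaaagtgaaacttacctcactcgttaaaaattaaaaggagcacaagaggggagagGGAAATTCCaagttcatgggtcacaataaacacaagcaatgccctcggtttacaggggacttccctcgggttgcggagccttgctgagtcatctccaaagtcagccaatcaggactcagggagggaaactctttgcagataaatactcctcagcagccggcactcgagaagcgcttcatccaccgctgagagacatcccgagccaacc
For Tas2r137 and Tas2r118, bitter taste receptors (chr6:40490988-40491287 and chr6:23970011-23970310), for Rgs21, a regulator of G protein signalling found in taste cells (chr1:144567618-144567917), and for Ano7, an anoctamin family protein (chr1:93373646-93373945), the capitals mark the octamer ATGCAAAT, the site of POU factors, on either strand. The matches start 192, 124, 200 and 174 bases before the TSS.
Tas2r137: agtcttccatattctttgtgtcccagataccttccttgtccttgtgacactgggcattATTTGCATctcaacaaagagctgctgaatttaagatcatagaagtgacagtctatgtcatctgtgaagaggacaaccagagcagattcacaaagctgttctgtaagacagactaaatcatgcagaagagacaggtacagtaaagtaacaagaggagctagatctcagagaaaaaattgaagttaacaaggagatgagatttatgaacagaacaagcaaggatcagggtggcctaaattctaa
Tas2r118: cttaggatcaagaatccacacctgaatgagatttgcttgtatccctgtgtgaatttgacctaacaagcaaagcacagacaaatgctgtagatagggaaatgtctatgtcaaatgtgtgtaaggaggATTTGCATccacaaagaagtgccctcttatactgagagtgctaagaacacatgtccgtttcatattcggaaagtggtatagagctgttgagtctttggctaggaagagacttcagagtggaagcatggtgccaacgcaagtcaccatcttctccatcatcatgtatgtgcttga
Rgs21: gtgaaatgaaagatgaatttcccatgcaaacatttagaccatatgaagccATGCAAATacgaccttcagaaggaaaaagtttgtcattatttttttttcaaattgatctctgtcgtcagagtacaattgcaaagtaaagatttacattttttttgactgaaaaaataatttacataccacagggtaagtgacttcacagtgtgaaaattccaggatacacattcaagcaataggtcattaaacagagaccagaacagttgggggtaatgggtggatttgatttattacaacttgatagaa
Ano7: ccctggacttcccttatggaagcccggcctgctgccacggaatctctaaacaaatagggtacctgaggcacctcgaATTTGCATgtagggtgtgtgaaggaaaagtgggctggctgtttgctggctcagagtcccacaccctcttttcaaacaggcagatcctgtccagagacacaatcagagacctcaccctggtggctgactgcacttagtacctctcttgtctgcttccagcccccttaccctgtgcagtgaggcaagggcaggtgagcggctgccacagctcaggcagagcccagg

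The peaks at these 7 promoters were open on opposite sides of the comparison. Values here and below are scaled tags, that is aligned tags over the peak per 10000000 tags of the library, after a correction for composition. The H2-Eb1 promoter peak had 111 and 116 in mTEC-II libraries, against 58.2 and 59.3 in mTEC-IV libraries. That of Nfkbia had 147 and 170 in mTEC-II, against 84.8 and 84.5 in mTEC-IV, and that of Cxcl10 had 80.4 and 84.1 in mTEC-II, against 17.3 and 37.8 in mTEC-IV. None of these overlapped between the populations, and neither did 36495 of all 58745 tested peaks. The Tas2r137 promoter peak had 1.17 and 0.774 in mTEC-II, against 33.8 and 39.9 in mTEC-IV. That peak was centred 300 bp upstream of the TSS (mm9, chr6:40440872-40441002). The marked octamer, 192 bases before the TSS, lay outside it, as did most of the printed sequence. The Tas2r118 promoter peak had 0 in both mTEC-II libraries, against 23 and 16.3 in mTEC-IV. The Rgs21 peak had 2.33 in each mTEC-II library, against 43.1 and 31.5 in mTEC-IV, and the Ano7 peak had 0 in both mTEC-II libraries, against 29.5 and 44.1 in mTEC-IV. The 7 were picked by their call, and the 4 with an octamer all came from the less open side. The contrast between motifs was thus fixed by the choice. Among promoters of genes with a more open peak there, 2.04% also held the octamer, against 1.46% of those tested. Each of the 7 kept its call with any library left out, except that the peaks of Tas2r137, Tas2r118 and Ano7 no longer passed the filter on low values without either mTEC-IV library and were called there only when the same peaks were tested.

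The 2 mTEC-II libraries held 3.61e+06 and 6.21e+06 total tags, of which 17.8% and 15.3% lay in merged peaks, against 6.01e+06 and 1.04e+07 in the mTEC-IV libraries, with 18.1% and 14.2% in peaks. Correlations of log2 values over the tested peaks were 0.862 between the mTEC-II libraries, 0.920 between the mTEC-IV libraries and 0.491 to 0.531 across the populations. The genes behind the sort were checked first. H2-Aa, a class II chain, summed over its peaks within 10 kb to 331 and 307 scaled tags in mTEC-II, against 165 and 143 in mTEC-IV. L1cam, an adhesion molecule used to sort mTEC-IV, had 1.13 and 3.19 in mTEC-II, against 10.6 and 11.9 in mTEC-IV, and missed the threshold over genes (log2 difference -2.04 ± 0.73 SE, adjusted p = 0.0697, limma). Its only peak, in intron 1, was called in the fit over peaks (adjusted p = 0.0231, limma), but not without mTEC-II replicate 1 (adjusted p = 0.119), and it was no longer tested without either mTEC-IV library. Itgb4 had 65.6 and 43.1 in mTEC-II, against 62.6 and 61.0 in mTEC-IV, and these overlapped, although mTEC-IV was sorted as negative for its protein. Epcam, the epithelial marker of both gates, had 161 and 152 in mTEC-II, against 152 and 136 in mTEC-IV. Ptprc, which encodes CD45, had no peak within 10 kb.

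Of the 58745 tested peaks, 8252 were more open in mTEC-II than in mTEC-IV (14.0%) and 8017 were less open (13.6%) at an adjusted p under 0.05 by limma. The differences were large. The median log2 difference was 2.22 among the more open and -2.89 among the less open peaks, on the scale log2(value + 1), which understates the change of low peaks. At least 4-fold differences made up 5115 of the more open and 6106 of the less open peaks, and 354 of the more open had 0 in both mTEC-IV libraries, while 829 of the less open had 0 in both mTEC-II libraries. Of the less open peaks, 71.5% passed the filter on low values only through the mTEC-IV libraries, against 14.3% of the more open peaks that passed only through mTEC-II. The filter favoured a difference at such peaks but did not force a call. Of 8080 tested peaks that passed only through mTEC-IV, 5730 were called less open. Of 2741 that passed only through mTEC-II, 1179 were called more open. The less open calls leaned on both mTEC-IV libraries: 869 were left without mTEC-IV replicate 1 and 1173 without replicate 2, 4691 and 4689 of the 8017 no longer passing the filter, and 3335 and 3961 were left when the same peaks were tested. The more open calls fell to 4338 and 5309 without these libraries, and to 5067 without mTEC-II replicate 2.

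Over genes, 1037 of 15008 were more open in mTEC-II (6.91%) and 917 less open (6.11%), with median log2 differences of 1.27 and -1.31, when the peaks within 10 kb of the TSS were summed. The median over all tested genes was 0.01. Without mTEC-IV replicate 1 or replicate 2, 433 or 580 genes were more open and 178 or 251 less open. With mTEC-II replicate 1 left out the counts were 643 and 550, and with mTEC-II replicate 2 left out 626 and 714. These sums describe chromatin around a start site and no transcript was measured.

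**Figure D1:**
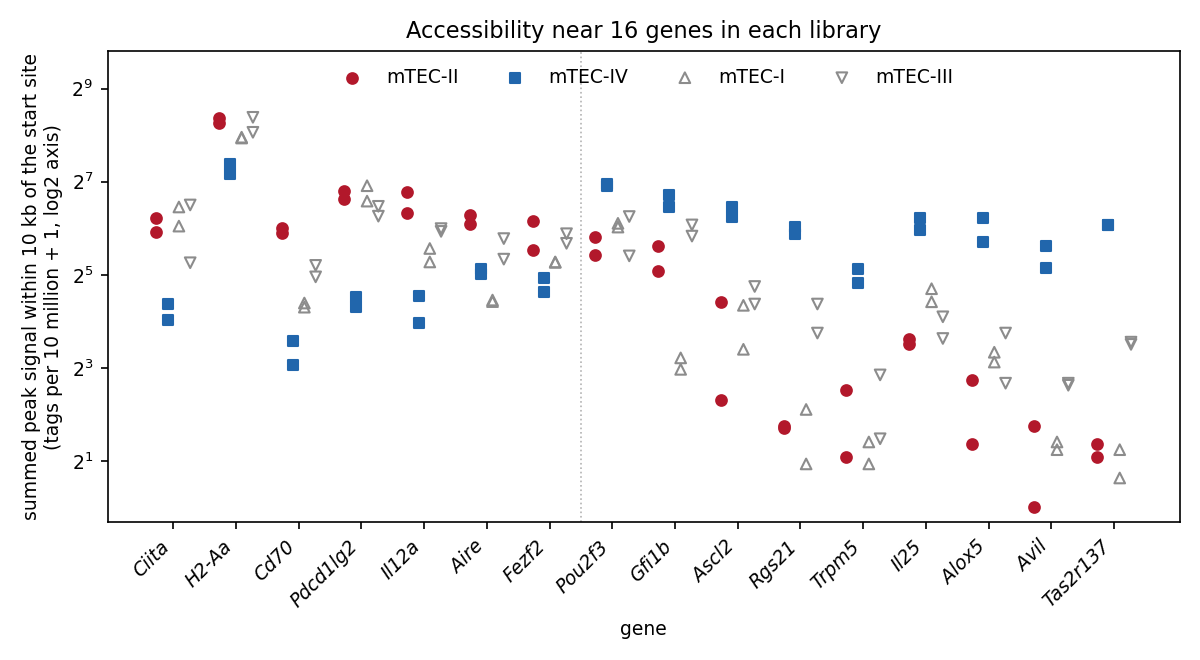
Summed peak signal within 10 kb of the TSS of 16 genes (log2 axis, scaled tags + 1), with 1 point per library. mTEC-II (red circles) stands left of mTEC-IV (blue squares), and the other 2 populations are open grey symbols. The 7 genes left of the dotted line, such as Cd70 at 58.8 and 63.0 in mTEC-II against 7.32 and 10.9 in mTEC-IV, are higher in mTEC-II, and the 9 to its right, such as Rgs21, are lower.

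Class II presentation genes lay on the mTEC-II side. Of 17 listed genes, all of which were tested, 10 were more open and none less open in mTEC-II, where 6.91% of all tested genes were more open, and the list's median log2 difference was 0.73. Ciita, the class II coactivator, had 59.9 and 73.4 scaled tags in mTEC-II, against 15.3 and 19.8 in mTEC-IV (log2 difference 1.87 ± 0.32 SE, adjusted p = 0.000456, limma). H2-Ab1, a class II chain, had 309 and 289 in mTEC-II, against 130 and 125 in mTEC-IV. H2-Oa, a modulator of peptide loading, had 26 and 25.5 in mTEC-II, against 5.33 and 8.93 in mTEC-IV. H2-Eb2, a further class II chain gene, had 95.0 and 98.9 in mTEC-II, against 48.6 and 31.2 in mTEC-IV. The others called were H2-Aa, H2-Eb1, H2-DMb2, Cd74 (the invariant chain), Rfxank (a subunit of the X box binding complex) and the thiol reductase gene Ifi30. The cathepsins Ctss and Ctsl and the remaining complex members Rfx5 and Rfxap did not pass the test. MHC class II was itself a gate of the sort, so the class II loci describe the sorted cells. Ciita, H2-Aa, H2-Ab1 and H2-Eb2 were called in each of the 4 fits with a library left out, and H2-Oa in 2 of them. In all, 7 genes of the list were called without mTEC-IV replicate 1 and 8 to 10 in the other 3 fits.

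Differences at the Ciita locus lay at distal sites as well as at a promoter. A peak 14.7 kb upstream (mm9, chr16:10465308-10465658) had 110 and 120 scaled tags in mTEC-II, against 22.3 and 21 in mTEC-IV. The promoter peak (mm9, chr16:10489694-10489869), annotated to a Ciita transcript, had 38.5 and 29.6 in mTEC-II, against 4.31 and 3.15 in mTEC-IV. A site in intron 2 had 22.1 and 31.9 in mTEC-II, against 5.76 and 9.46 in mTEC-IV. Each of the 3 was called, and 1 more called peak, 13.6 kb upstream, lay in an RMER4B repeat. The first and the promoter peak kept their call with any library left out, the intron site lost it without mTEC-II replicate 2 or mTEC-IV replicate 1 (adjusted p = 0.0872 and 0.116), and the RMER4B peak kept it only without mTEC-II replicate 1. In H2-Ab1 a peak 5365 bp upstream had 118 and 112 in mTEC-II, against 30.9 and 38.3 in mTEC-IV, a wider gap than at its promoter, which had 119 and 87.3 in mTEC-II against 59.0 and 50.9 in mTEC-IV.

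Costimulatory and checkpoint genes and genes of the Aire stage shared this direction. In the first list 5 of 11 tested genes were more open in mTEC-II and none less open (median log2 difference 0.88). Of all tested genes 6.91% were more open. Cd70, the ligand of CD27, had 58.8 and 63.0 in mTEC-II, against 7.32 and 10.9 in mTEC-IV (log2 difference 2.64 ± 0.35 SE, adjusted p = 3.81e-05, limma). Pdcd1lg2, which encodes PD-L2, had 97.2 and 110 in mTEC-II, against 22 and 18.8 in mTEC-IV. Cd40, Tnfsf9 and Pvr made up the rest. Cd274, which encodes PD-L1, had 47.5 and 59.8 in mTEC-II, against 70.5 and 73.9 in mTEC-IV, and did not pass the test. Cd80 missed the threshold over its summed peaks (adjusted p = 0.0685, limma), whereas its promoter peak was called, with 47.8 and 36.6 in mTEC-II against 12.2 and 15.8 in mTEC-IV. Cd70, Pdcd1lg2 and Cd40 were called in each fit with a library left out, Tnfsf9 and Pvr in none, and the Cd80 promoter peak lost its call without mTEC-IV replicate 1 (adjusted p = 0.0511).

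In the Aire-stage list 9 of 14 tested genes were more open in mTEC-II and none less open (median log2 difference 0.95). Of all tested genes 6.91% were more open. Aire had 76.9 and 67.0 in mTEC-II, against 33.9 and 31.2 in mTEC-IV (log2 difference 1.12 ± 0.28 SE, adjusted p = 0.00957, limma). Fezf2, a second regulator of self-antigen genes in the medulla, had 45.2 and 70.2 in mTEC-II, against 29.3 and 23.8 in mTEC-IV. Il12a, a subunit shared by interleukin-12 and interleukin-35, had 109 and 79.8 in mTEC-II, against 14.6 and 22.3 in mTEC-IV. Fgf21, a metabolic hormone, had 63.3 and 54.2 in mTEC-II, against 9.98 and 5.45 in mTEC-IV. Ccl17, a chemokine, had 67.8 and 55.8 in mTEC-II, against 26 and 23.8 in mTEC-IV. Tnfrsf11a, Sirt1, Irf8 and Cd52 were the other 4. With mTEC-IV replicate 1 left out 5 genes of the list were called, and with mTEC-IV replicate 2 or mTEC-II replicate 1 left out 6. Il12a and Fgf21 were called in each of these fits. Aire was called only without mTEC-II replicate 2 (adjusted p = 0.0353, against 0.0702 to 0.0919 in the other 3 fits, limma), Fezf2 only without mTEC-II replicate 1 (0.0124, against 0.0568 to 0.159), and Ccl17 in 1 fit.

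The Aire locus differed most at a site away from its promoter. An enhancer upstream of Aire that responds to NF-kB is known from mouse work. The peak 2743 bp upstream of the TSS (mm9, chr10:77509034-77509162) had 17.5 and 15.6 in mTEC-II, against 0 and 1.58 in mTEC-IV (log2 difference 3.45 ± 0.71 SE, adjusted p = 0.00185, limma). It had 2.63 and 2.13 in mTEC-I and 3.36 and 9.23 in mTEC-III. The peak did not pass the filter without either mTEC-II library, and its adjusted p was 0.0527 without mTEC-IV replicate 1; it was called in all 4 fits when the same peaks were tested. The Aire promoter peak had 61.8 and 49.9 in mTEC-II, against 36.7 and 31.5 in mTEC-IV, and missed the threshold (adjusted p = 0.0757, limma). At Fezf2, 4 of 14 tested peaks were more open and 1 less open. The peaks 38.6 kb and 39.3 kb upstream kept their call with any library left out, the nearer with 69.9 and 70.9 in mTEC-II against 22.3 and 11.6 in mTEC-IV, while the promoter peak 401 bp upstream, with 4.66 and 12.5 in mTEC-II against 2.16 and 4.73 in mTEC-IV, was not called.

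NF-kB signalling genes were more open in mTEC-II in 9 of 20 cases and less open in none, with a list median of 0.36. Over all tested genes 6.91% were more open, and the housekeeping list had 3 of 15 more open with a median of 0.23. Nfkbie, an inhibitor, had 150 and 202 in mTEC-II, against 85.2 and 96.7 in mTEC-IV. Traf1, an adaptor of TNF receptors, had 171 and 162 in mTEC-II, against 63.9 and 105 in mTEC-IV, and Traf6, the adaptor that RANK engages, had 73.5 and 95.7 in mTEC-II, against 45.3 and 35.2 in mTEC-IV. Relb, the subunit of the alternative pathway that the medulla requires, had 277 and 274 in mTEC-II, against 156 and 194 in mTEC-IV (log2 difference 0.66 ± 0.13 SE, adjusted p = 0.00196, limma). Nfkb1, Nfkb2 and Map3k14 did not pass the test. Nfkbia, Nfkbie and Ikbkb were called with any library left out. Without mTEC-IV replicate 1, 4 genes of the list were called, Relb not among them (adjusted p = 0.0763, limma), and 6 were without mTEC-II replicate 2 or mTEC-IV replicate 2. With the authors' scaling to total tags alone, 3 NF-kB genes were called, and 6 of the class II, 3 of the costimulatory and 8 of the Aire-stage genes.

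Interferon-response genes were called in 4 of 25 cases, each more open in mTEC-II, with a median of 0.09, where 6.91% of all tested genes were more open. Cxcl10 had 159 and 139 in mTEC-II, against 35.9 and 52.0 in mTEC-IV, and Psmb9, an immunoproteasome subunit, had 30.5 and 35.9 in mTEC-II, against 2.0 and 7.44 in mTEC-IV. Cxcl9 and Tap1, the peptide transporter gene, completed the count. Cxcl10 and Psmb9 were called with any library left out, Cxcl9 in 2 of the 4 fits and Tap1 in 1. The housekeeping list, fixed as a comparison, had 3 of 15 genes more open (Actb, Gapdh and B2m) and a median of 0.23. None of the 15 housekeeping genes was called with the authors' scaling. Over the 4 fits with a library left out, the log2 difference was 0.29 to 0.70 for Actb, 0.31 to 0.81 for Gapdh and 0.53 to 0.58 for B2m.

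Tuft-cell genes lay on the mTEC-IV side in every list of the pathway. Among regulators, 5 of 10 tested genes were less open in mTEC-II and none more open, with a median log2 difference of -0.79, where 6.11% of all tested genes were less open. Pou2f3, the factor that tuft cells require, had 41.8 and 55.0 in mTEC-II, against 119 and 123 in mTEC-IV (log2 difference -1.32 ± 0.25 SE, adjusted p = 0.000958, limma). Gfi1b, a zinc-finger repressor found in tuft cells, had 32.8 and 47.9 in mTEC-II, against 87.2 and 105 in mTEC-IV. Ascl2, a basic helix-loop-helix factor known from stem cells of the gut, had 20.3 and 3.98 in mTEC-II, against 75.2 and 87.2 in mTEC-IV. Runx1 had 79.2 and 83.0 in mTEC-II, against 218 and 231 in mTEC-IV, and Ehf, an epithelial ETS factor, was the remaining call. Spib, another ETS factor, went the other way at its promoter peak, with 76.9 and 48.3 in mTEC-II against 15.8 and 15.2 in mTEC-IV, and was not called over its summed peaks. Hmx2, Hmx3, Sox4 and Nfatc1 did not pass the test, although 9 of 17 tested Nfatc1 peaks at any distance were less open and 0 more open. Pou2f3, Ascl2 and Runx1 were called with any library left out, Ehf with none, and Gfi1b only without mTEC-II replicate 2 (adjusted p = 0.0120, limma, against 0.0551 to 0.119).

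At Pou2f3, 4 of 9 tested peaks were called and each was less open in mTEC-II. The site in intron 2 (mm9, chr9:42996973-42997160) had 1.17 and 0 in mTEC-II, against 38.8 and 29.9 in mTEC-IV (log2 difference -4.57 ± 0.69 SE, adjusted p = 0.000267, limma). It had 0 in both mTEC-I libraries and 3.36 and 7.18 in mTEC-III. The peak 178 bp upstream of the TSS had 6.99 and 0.774 in mTEC-II, against 33.1 and 18.9 in mTEC-IV, and the peak 4466 bp upstream had 6.99 and 2.33 in mTEC-II, against 31.6 and 36.2 in mTEC-IV. With an mTEC-IV library left out the intron 2 site was called only when the same peaks were tested, and the peak at 178 bp missed the threshold without mTEC-IV replicate 1 (adjusted p = 0.0877, limma). At Gfi1b the site 901 bp upstream of the TSS (mm9, chr2:28478339-28478468) had 2.33 and 3.12 in mTEC-II, against 31.6 and 32 in mTEC-IV. The Gfi1b peak in exon 1, with 14.0 and 16.4 in mTEC-II against 12.9 and 16.3 in mTEC-IV, overlapped between the populations, whereas the site at 901 bp kept its call with any library left out.

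Most tested genes of taste transduction were less open in mTEC-II. Of 11 tested genes 8 were less open and none more open (median log2 difference -2.09), where 6.11% of all tested genes were less open. Tas1r3, a subunit of the sweet and umami receptors, had 0 and 2.39 in mTEC-II, against 33.9 and 36.2 in mTEC-IV. Gnat3, the gustducin alpha subunit, had 3.39 and 1.60 in mTEC-II, against 45.3 and 34.2 in mTEC-IV. Rgs21 had 2.26 and 2.39 in mTEC-II, against 64.6 and 58.0 in mTEC-IV (log2 difference -4.23 ± 0.56 SE, adjusted p = 3.81e-05, limma). Trpm5, the cation channel at the end of the cascade, had 1.13 and 4.78 in mTEC-II, against 27.3 and 33.7 in mTEC-IV, and Calhm1, a channel for ATP release, had 0 and 3.19 in mTEC-II, against 26.6 and 12.9 in mTEC-IV. Gng13, Plcb2 and Pde2a were the other calls. Gnb3, Itpr3 and Entpd2 did not pass the test. Tas1r3 and Rgs21 were called with any library left out. Where mTEC-IV replicate 1 or 2 was left out, 2 or 3 genes of the list were called, and Trpm5 no longer passed the filter. Trpm5 also missed the threshold without mTEC-II replicate 1 (adjusted p = 0.0674, limma), and Gnat3 and Calhm1 were called in 1 of the 4 fits.

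Effector and structural genes of tuft cells followed. Of 11 tested effector genes 8 were less open in mTEC-II (median log2 difference -1.79), and of 20 tested genes of structure and signalling 15 were (median -1.45), with none more open in either list. Of all tested genes 6.11% were less open. Il25, the cytokine by which tuft cells act on lymphoid cells, had 11.3 and 10.4 in mTEC-II, against 73.2 and 61.0 in mTEC-IV (log2 difference -2.52 ± 0.37 SE, adjusted p = 9.99e-05, limma). Alox5, which starts leukotriene synthesis, had 5.65 and 1.59 in mTEC-II, against 73.2 and 51.1 in mTEC-IV, and its partner Alox5ap had 10.2 and 5.58 in mTEC-II, against 59.9 and 70.4 in mTEC-IV. Hpgds, a prostaglandin D synthase, had 9.04 and 19.9 in mTEC-II, against 67.2 and 68.4 in mTEC-IV, and Il17rb, the Il25 receptor gene, had 5.65 and 3.19 in mTEC-II, against 28.0 and 24.8 in mTEC-IV. Avil, an actin-binding protein of the tuft, had 0 and 2.39 in mTEC-II, against 47.9 and 34.2 in mTEC-IV. Rgs13 had 4.53 and 3.98 in mTEC-II, against 67.2 and 74.9 in mTEC-IV, and the Tec-family kinase gene Bmx had 2.26 and 1.60 in mTEC-II, against 45.3 and 34.2 in mTEC-IV. Ly6g6f was among the other calls. Chat, the choline acetyltransferase gene, with 11.3 and 10.4 in mTEC-II against 23.3 and 12.9 in mTEC-IV, and the keratins Krt8 and Krt18 did not pass the test. Il25, Alox5 and Alox5ap were called with any library left out, and Hpgds and Il17rb in 1 of the 4 fits. With mTEC-IV replicate 1 or 2 left out, 3 or 4 effector and 6 or 5 structural genes were called, or 10 or 9 structural genes when the same genes were tested, Avil, Bmx and Rgs13 being below the filter in the first case. Without mTEC-II replicate 1, 4 effector genes were called.

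Of the 19 bitter receptor genes in the table, 15 had a peak within 10 kb of the TSS and 12 were tested, of which 8 were less open and 1 more open in mTEC-II. Of all tested genes 6.11% were less open and 6.91% more open. Tas2r137 had 1.13 and 1.59 in mTEC-II, against 66.6 and 66.4 in mTEC-IV (log2 difference -4.84 ± 0.59 SE, adjusted p = 1.52e-05, limma). Tas2r118 had 4.53 and 3.19 in mTEC-II, against 79.2 and 77.8 in mTEC-IV, and Tas2r121 had 0 and 1.60 in mTEC-II, against 39.3 and 29.7 in mTEC-IV. Tas2r116 had 1.13 and 0 in mTEC-II, against 24.6 and 15.9 in mTEC-IV. Tas2r102 had 3.39 and 0.793 in mTEC-II, against 36.6 and 29.2 in mTEC-IV. Tas2r110, Tas2r126 and Tas2r138 were less open too. These receptors did not overlap between the populations, and neither did 8224 of all 15008 tested genes. Tas2r135 was the exception, with 27.1 and 24.7 in mTEC-II against 3.99 and 2.97 in mTEC-IV (log2 difference 2.59 ± 0.58 SE, adjusted p = 0.00434, limma), and it had 28.6 and 13.5 in mTEC-III. Tas2r120, Tas2r134 and Tas2r143 did not pass the test, with log2 differences of -1.64, -2.13 and -0.62. Single promoter peaks of Tas2r134 and Tas2r143 were called less open, however (adjusted p = 0.0192 and 0.00827, limma). Tas2r107, with 0 in both mTEC-II libraries against 14.0 and 7.44 in mTEC-IV, Tas2r119, with 0 in both mTEC-II libraries against 6.66 and 10.9 in mTEC-IV, and Tas2r122, with 3.39 and 0.793 in mTEC-II against 14.6 and 7.44 in mTEC-IV, were below the filter. Tas2r103, Tas2r115, Tas2r129 and Tas2r144 had no peak within 10 kb. Tas2r137, Tas2r118, Tas2r126 and Tas2r138 were called less open with any library left out. The other 4 were not called without either mTEC-IV library, and Tas2r135 lost its call without mTEC-IV replicate 2 (adjusted p = 0.0583, limma).

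**Figure D2:**
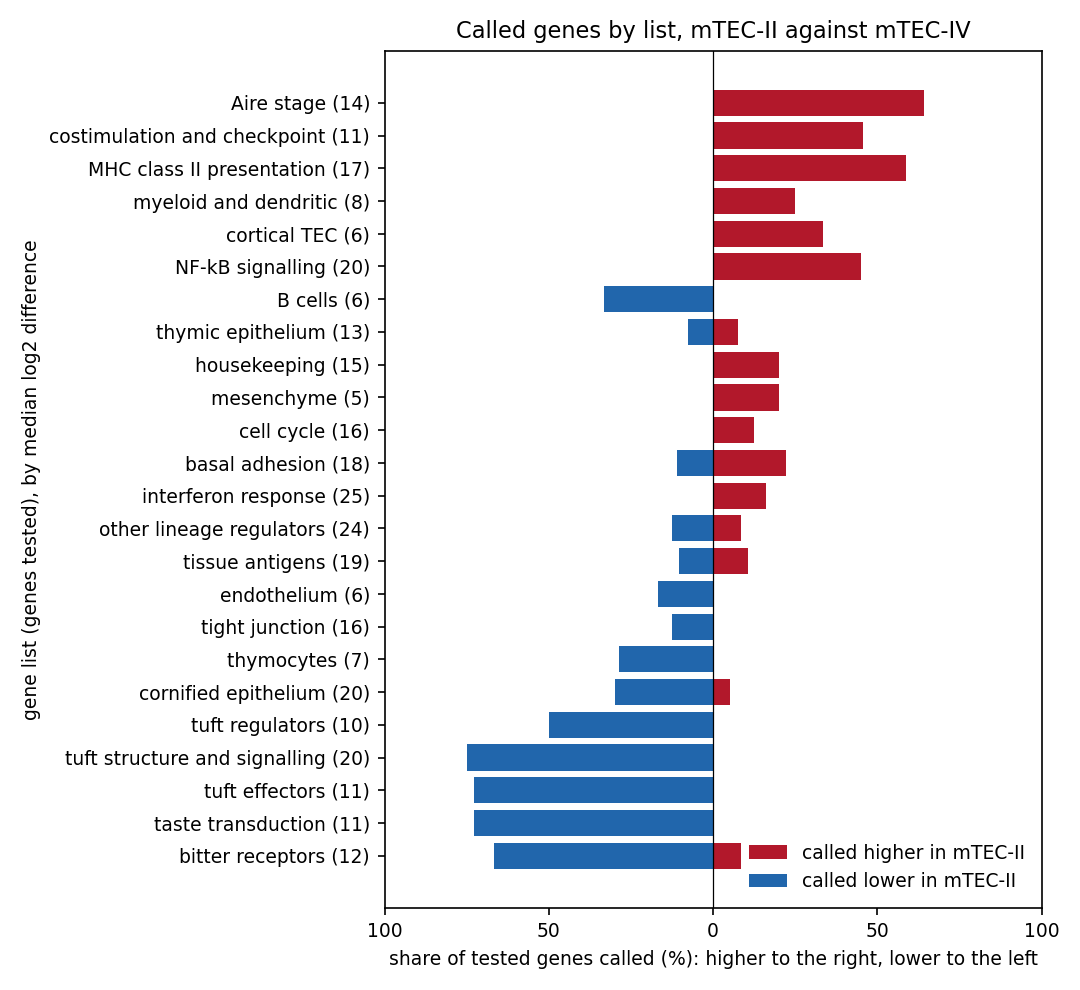
Share of tested genes per list that were called more open (red, to the right) or less open (blue, to the left) in mTEC-II than in mTEC-IV, with the number tested in brackets and lists ordered by median log2 difference. The Aire-stage list (9 of 14 more open) stands at the top and the bitter receptors (8 of 12 less open) at the bottom.

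Lists of the wider epithelium were read in the same way. Over all tested genes 6.91% were more open and 6.11% less open, and the housekeeping list had 3 of 15 more open. Counts of 1 or 2 genes below therefore describe those genes and not the lists. Among basal adhesion genes 4 of 18 were more open in mTEC-II and 2 less open: the keratin genes Krt14, with 74.6 and 112 in mTEC-II against 27.3 and 27.3 in mTEC-IV, and Krt17, with 57.7 and 51.8 in mTEC-II against 20.6 and 25.8 in mTEC-IV, and also Pdpn and Cdh3, were more open, and the integrin subunit gene Itgb1 and Plec were less open. Trp63, the master regulator of basal epithelium, had 19.2 and 45.5 in mTEC-II, against 20 and 29.7 in mTEC-IV, and these overlapped, while 4 of its 18 peaks at any distance were more open and 2 less open. Krt14 was called with any library left out, Krt17 in 3 of the 4 fits, Cdh3 in 2 and Pdpn and Itgb1 in none. Of 20 cornified-epithelium genes 6 were less open and 1, the protease inhibitor gene Spink5, was more open, with a median log2 difference of -0.63. Calml3, a calmodulin-like protein of differentiating epithelium, had 9.04 and 12 in mTEC-II, against 59.2 and 55.5 in mTEC-IV. Of 16 tight-junction genes 2 were less open, Cdh1 and Cldn3, and none more open. Without mTEC-IV replicate 1, 1 cornified and no tight-junction gene was called less open. Foxn1, the factor that defines thymic epithelium, had 50.9 and 64.6 in mTEC-II, against 34.6 and 19.8 in mTEC-IV (log2 difference 1.10 ± 0.28 SE, adjusted p = 0.0115, limma), and lost its call without mTEC-II replicate 2 or mTEC-IV replicate 2 (0.113 and 0.233). Eya1 was the other call of 13 thymic epithelial genes, less open in mTEC-II and called in 1 of the 4 fits. Of 6 cortical epithelial genes 2 were more open, Prss16, a protease of positive selection, and Tbata, both also with any library left out. Among 16 cell-cycle genes Mki67 and Aurkb were more open, where 6.91% of all tested genes were.

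Tested genes of peripheral tissues were called in both directions. Of 40 listed tissue antigens 19 were tested, 2 were more open and 2 less open, and the median was -0.05. Over all tested genes the shares were 6.91% and 6.11%. With so few calls and many listed genes untested, the counts describe the called genes and not the list. S100b, a calcium-binding protein of glia, had 7.91 and 3.19 in mTEC-II, against 77.2 and 84.8 in mTEC-IV. Fabp1, a fatty-acid-binding protein of liver and gut, had 4.53 and 12.8 in mTEC-II, against 52.6 and 43.6 in mTEC-IV. Iapp, a hormone of pancreatic beta cells, had 41.8 and 43.9 in mTEC-II, against 19.3 and 23.3 in mTEC-IV, and Crp, an acute-phase protein of liver, had 4.53 and 8.77 in mTEC-II, against 0 and 0.987 in mTEC-IV. Of 24 tested regulators of other lineages Insm1 and Isl1 were more open and Pax6, Myog and Klf5 less open. S100b and Insm1 were called with any library left out, Klf5 in 3 of the 4 fits, Crp and Isl1 in 2, Fabp1 and Pax6 in 1, and Iapp and Myog in none.

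Some marker lists of other cell types differed between the populations. Summed over the list, thymocyte genes had 218 and 225 scaled tags in mTEC-II, against 237 and 234 in mTEC-IV. Cd4, with 0 and 1.60 in mTEC-II against 22.6 and 16.9 in mTEC-IV, and Lck, a kinase of T cells, were less open in mTEC-II. Cd3d, Cd3e, Cd3g, Cd8a, Rag1 and Rag2 had no tested value. The median log2 difference of the 7 tested thymocyte genes was -0.39. Of 39 tested peaks assigned to this list at any distance, however, 10 were more open and 2 less open. B-cell genes summed to 129 and 140 in mTEC-II, against 153 and 160 in mTEC-IV, with Cd79a and Cd79b less open and Ms4a1 and Pax5 untested. The median log2 difference of the 6 tested B-cell genes, 0.35, went the other way. Of 19 tested B-cell peaks at any distance 4 were more open and 3 less open. Myeloid and dendritic genes summed to 265 and 266 in mTEC-II, against 160 and 171 in mTEC-IV, with Zbtb46 and Fcgr1 more open and Csf1r, Itgax and Lyz2 untested. Endothelial genes summed to 82.5 and 92.5 in mTEC-II, against 136 and 149 in mTEC-IV, with Tek less open and Pecam1 and Cdh5 untested. Of 47 tested endothelial peaks at any distance, however, 10 were more open and 4 less open. Mesenchymal genes summed to 156 and 214 in mTEC-II, against 149 and 153 in mTEC-IV, with Tagln more open. None of these list sums overlapped between the populations, and neither did 8224 of all 15008 tested genes. Of these calls Tek was made with any library left out, Cd4, Lck, Cd79a, Cd79b and Tagln each in 1 of the 4 fits, and Zbtb46 and Fcgr1 in none. The part of other cells in the class II and tuft results was not tested.

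The 10 genes with the largest rise whose libraries did not overlap included 2 olfactory receptor genes. Olfr434 had 31.7 and 43.1 in mTEC-II, against 0 in both mTEC-IV libraries, at least 43.8-fold higher when 3 read ends over both mTEC-IV libraries are taken as the floor. Il1r2, the decoy receptor for interleukin-1, had 22.6 and 31.1 in mTEC-II, against 0 in both mTEC-IV libraries, at least 31.5-fold higher. Ntm, a neuronal adhesion molecule, had 41.8 and 71.8 in mTEC-II, against 0.664 and 3.47 in mTEC-IV. Snrpn, an imprinted gene of splicing, had 47.5 and 58.2 in mTEC-II, against 3.99 and 1.99 in mTEC-IV, and Dlg2, a synaptic scaffold, had 35.0 and 31.1 in mTEC-II, against 0 and 2.48 in mTEC-IV. Clec12b, Primpol, Gdap1l1, Olfr429 and Acnat2 completed the set, with log2 differences between 3.73 and 4.18. Of these 10 genes 9 were called with any library left out, and Olfr429 in 3 of the 4 fits.

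The 10 largest falls held 2 bitter receptors, Tas2r137 and Tas2r121, and the tuft gene Avil, besides genes of other kinds. Ano7 had 0 in both mTEC-II libraries, against 27.3 and 41.6 in mTEC-IV, at least 24.6-fold lower. Nov, a matricellular protein, had 0 in both, against 32.6 and 16.9 in mTEC-IV, at least 17.6-fold lower, and Pglyrp3, a peptidoglycan recognition protein, had 0 in both, against 28.0 and 19.3 in mTEC-IV, at least 16.9-fold lower. Rnf223 was at least 17.1-fold lower and Tat, the tyrosine aminotransferase gene, at least 16.1-fold lower, each with 0 in both mTEC-II libraries. Hepacam2, an adhesion protein known from tuft cells of the gut, had 0 and 4.79 in mTEC-II, against 61.9 and 53.0 in mTEC-IV, and Tmprss11e, a serine protease, had 0 and 2.39 in mTEC-II, against 47.9 and 38.2 in mTEC-IV. Tas2r137 and Tmprss11e were called with any library left out. Ano7, Nov, Pglyrp3, Tat, Hepacam2 and Avil no longer passed the filter without either mTEC-IV library, and Rnf223 missed the threshold without mTEC-IV replicate 1 (adjusted p = 0.0588, limma). When the same genes were tested, Ano7, Pglyrp3, Hepacam2, Avil and Rnf223 were called in all 4 fits.

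At single peaks with a mean of at least 20, the largest rise lay 126 kb upstream of the predicted gene Gm20356 (mm9, chr3:73946938-73947098), with 50.1 and 49.9 in mTEC-II against 0 in both mTEC-IV libraries, at least 54.9-fold higher. The next lay in intron 2 of Wdr64 (mm9, chr1:177644374-177644675), with 48.9 and 52.2 in mTEC-II against 0 and 1.05 in mTEC-IV. The largest fall lay 61.5 kb from the TSS of Pik3cg, a phosphoinositide kinase subunit gene (mm9, chr12:32831586-32831801), with 0 in both mTEC-II libraries against 58.2 and 63.0 in mTEC-IV, at least 43.3-fold lower. A peak 5683 bp upstream of Cmip (mm9, chr8:119775157-119775316) had 0 in both mTEC-II libraries, against 53.9 and 60.4 in mTEC-IV, and another in intron 1 of Kcnh8, a potassium channel gene, had 0 in both, against 50.3 and 49.4 in mTEC-IV. The peaks nearest to Cpa6 and Mir7078 likewise had 0 in both mTEC-II libraries. All of these kept their call with any library left out, those of Cmip, Kcnh8 and Mir7078 only when the same peaks were tested.

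Some genes had many called peaks assigned to them at any distance, and 5 of the 10 with the most were not called over the sum within 10 kb (Med13l, Xylt1, Tbl1xr1, Celf2 and Klf4). 2310008N11Rik had 12 more open peaks of 19 and none less open, and Trpc7, a cation channel gene, 9 of 15. Med13l, a Mediator subunit gene, had 12 more open and 3 less open of 24, and its sum within 10 kb had 158 and 101 in mTEC-II, against 133 and 117 in mTEC-IV. Xylt1 had 10 more open and none less open of 22, and Tbl1xr1 10 more open and 3 less open of 35. On the other side Plk2, a kinase gene, had 12 less open peaks of 19 and none more open, and Ano6 had 12 less open and 3 more open of 19. Klf4, an epithelial differentiation factor, had 11 less open and 2 more open of 22, Eya1 11 and 3 of 18, and Celf2 11 and 6 of 18. Klf4 had 132 and 107 within 10 kb in mTEC-II, against 126 and 147 in mTEC-IV, and these overlapped. Over all genes, 8148 had at least 1 called peak at any distance, of which 3250 had more open peaks only, 3034 less open peaks only and 1864 both.

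**Figure D3:**
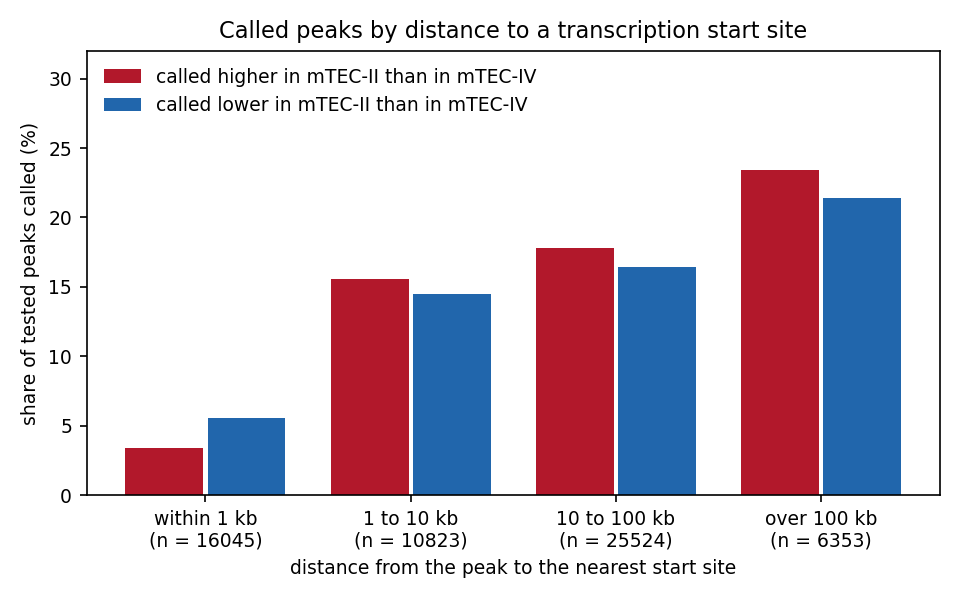
Share of tested peaks called more open (red) or less open (blue) in mTEC-II than in mTEC-IV, by distance to the nearest TSS, with the number of tested peaks under each pair of bars. Within 1 kb 3.41% were more and 5.59% less open, and beyond 100 kb 23.4% were more and 21.4% less open.

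Most called peaks lay away from promoters. Within 1 kb of a TSS 547 of 16045 tested peaks were more open and 897 less open in mTEC-II, 9.0% in all. The balance of directions there depends on the scaling. The median log2 difference of these peaks was -0.13. With TMM factors from promoter peaks, the median over all tested peaks moved from -0.004 to 0.13, and the counts within 1 kb were not retaken. Summed per gene, peaks within 1 kb gave 283 genes more open and 206 less open. Between 10 and 100 kb 34.2% of 25524 peaks were called, and beyond 100 kb 44.8% of 6353. Signal strength moved with position: in the top signal quartile 6.95% of peaks within 1 kb, with a median level of 59.7, and 32.8% of the others, with a median level of 37.4, were called. The part of strength in the gap was not tested. Peaks in CpG islands were called in 6.83% of 2254 cases, intronic peaks in 34.5% and intergenic peaks in 34.0%. Promoter signal differed with the balance of distal calls: the median promoter log2 difference was -0.01 over 212 genes with at least 3 more distal peaks called more open than less open, -0.11 over 3830 genes with balanced calls and -0.42 over 222 genes with at least 3 more called less open. These shares are given as descriptions.

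The other 2 populations were read at the same sites. At the 8252 more open peaks the median was 21 and 21.8 scaled tags in mTEC-II and 2.88 and 3.67 in mTEC-IV, with 16.2 and 16 in mTEC-I and 16.8 and 16.4 in mTEC-III. At the 8017 less open peaks it was 2.33 in each mTEC-II library and 24.4 and 23.1 in mTEC-IV, with 0.879 and 1.07 in mTEC-I and 5.03 and 5.12 in mTEC-III. Since most less open peaks passed the filter only through mTEC-IV, low values there in mTEC-I and mTEC-III were largely fixed by the filter. No test was made of these populations. In the authors' own peak lists, which were called per library, 65.7% of the less open peaks were listed in both mTEC-IV libraries and in neither mTEC-II library, against 14.5% of all tested peaks. Of the more open peaks 27.8% were listed in both mTEC-II libraries and in neither mTEC-IV library, against 4.48%, the mTEC-II lists being shorter with 19008 and 27739 peaks, against 30017 and 38108 for mTEC-IV. These lists come from the same reads as the calls and are no separate support for them.

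**Figure D4:**
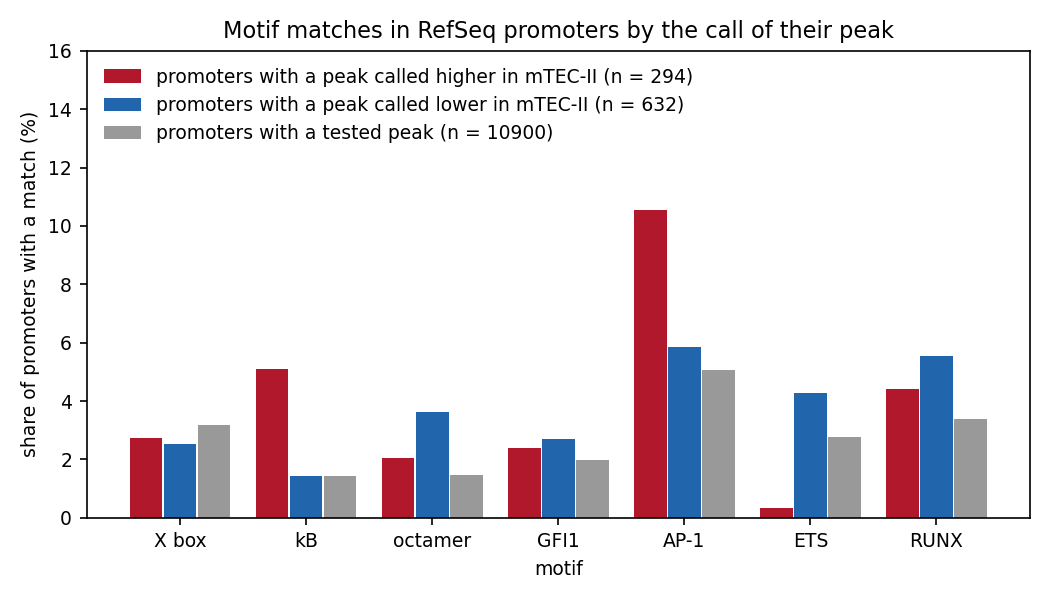
Share of RefSeq promoters (300 bases) with a match to each of 7 motifs on either strand, for promoters of genes with a peak within 300 bp called more open (red) or less open (blue) in mTEC-II, and for all with a tested peak there (grey). The NF-kB motif (5.10% of red, 1.45% of grey) and the octamer (3.64% of blue, 1.46% of grey) stand above the grey bars, as does AP-1 in red. The Y box is not drawn.

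Promoter motifs were counted in the 300-base windows of genes with a peak within 300 bp of the TSS. There were 294 such windows for genes with a more open peak (227 of 315 gene symbols matched) and 632 for genes with a less open one (464 of 624 matched), against 10900 for all tested. The NF-kB motif GGANTTTCC was found in 15 of 294 windows with a more open peak (5.10%), in 1.42% of those with a less open one, and in 1.45% of those tested and 1.25% of all 32851 promoters in RefSeq. Besides Nfkbia and Cxcl10 it was in the promoter of Krt14, whose peak had 15.1 and 19.5 in mTEC-II, against 0.717 and 1.05 in mTEC-IV. The octamer ATGCAAAT was found in 2.04% of windows with a more open and 3.64% of those with a less open peak, against 1.46% of tested and 1.74% of all promoters. The ETS motif GAGGAAGT was in 0.340% and 4.27%, against 2.77% of tested and 3.20% of all, and the AP-1 motif TGANTCA in 10.5% and 5.85%, against 5.06% and 7.81%. The RUNX motif TGTGGTT was in 4.42% and 5.54%, against 3.38% and 5.27%, the GFI1 motif AAATCAC in 2.38% and 2.69%, against 1.99% and 3.20%, and the X box core in 2.72% and 2.53%, against 3.18% and 3.66%. The Y box ATTGG, a common 5-letter word, was in 37.4% and 32.1%, against 37.9% and 37.4%. A match is a description of the letters only, and peaks away from promoters could not be searched.

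Peaks annotated to repeats did not move evenly. Of 39 families with at least 30 tested peaks, some were called nearly always in the same direction. RMER4B, a long terminal repeat (LTR) of endogenous retroviruses, had 49 of 54 peaks more open and 2 less open in mTEC-II, with a median per library of 22.1 and 26.1 in mTEC-II, against 1.43 and 2.63 in mTEC-IV. RLTR14 had 31 of 38 more open and none less open, RLTR23 39 of 61 more open and 5 less open, and the LINE family Lx6 45 of 72 more open and 5 less open. In the other direction, the DNA transposon MER2 had 1 of 47 more open and 42 less open, with a median of 2.33 and 1.56 in mTEC-II, against 20.1 and 22.6 in mTEC-IV. The LINE family L1M2 had 3 of 31 more open and 21 less open. In mTEC-I and mTEC-III the medians of both families were at most 4.11. The filter on low values therefore favoured their direction. How many of their peaks were still tested with an mTEC-IV library left out was not counted. B3 elements, the commonest with 234 peaks, had 14 more open and 21 less open. All LTR peaks pooled were more open in 28.7% and less open in 17.6% of 2080 cases, against 14.0% and 13.6% of all tested peaks. With 1 library left out, RMER4B, RLTR14, RLTR23 and Lx6 had 30 to 41, 16 to 25, 28 to 32 and 35 to 39 more open peaks, whereas MER2 had 5 less open peaks and L1M2 none with either mTEC-IV library left out. How reads that align to several copies were handled is not given in the sources used here, so the copy that gave a signal is uncertain.

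**Figure D5:**
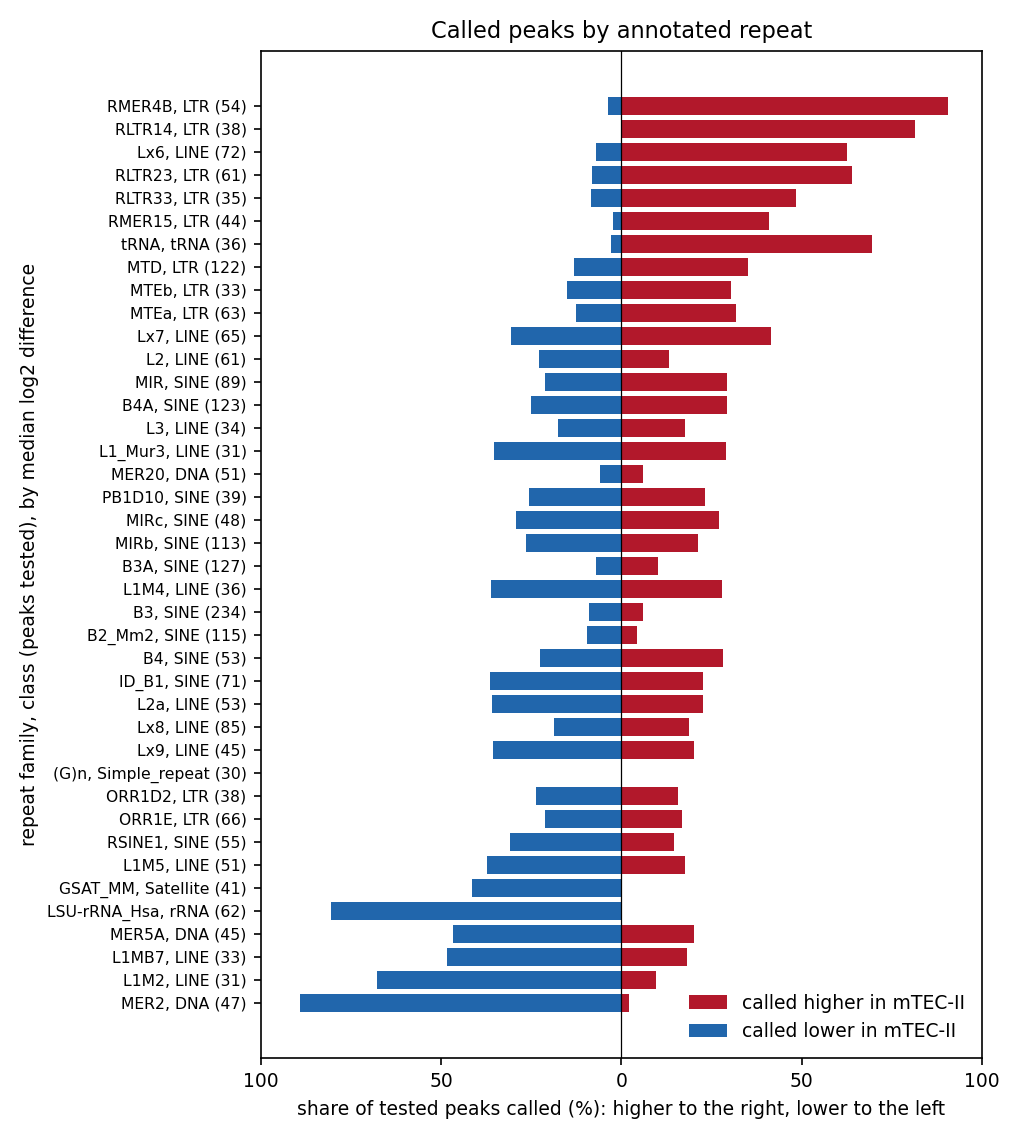
Share of tested peaks called more open (red, to the right) or less open (blue, to the left) in mTEC-II than in mTEC-IV for each repeat family with at least 30 tested peaks and for tRNA genes, with the number tested in brackets. RMER4B (49 of 54 more open) is at the top and MER2 (42 of 47 less open) at the bottom.

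Peaks at tRNA genes and at ribosomal RNA copies moved in opposite directions. Of 36 tRNA peaks 25 were more open and 1 less open in mTEC-II, with a median per library of 40.8 and 37.4 in mTEC-II, against 11.9 and 15.5 in mTEC-IV, and 17 of the 36 lay on chromosome 13. Without mTEC-IV replicate 1, mTEC-II replicate 1 or mTEC-II replicate 2, the more open tRNA peaks numbered 8, 16 and 14, and without mTEC-IV replicate 2 they numbered 16. Of 69 peaks in ribosomal RNA repeats 53 were less open and none more open, with a median of 38.5 and 35.8 in mTEC-II, against 83.4 and 85.6 in mTEC-IV. Without mTEC-IV replicate 1, 34 were less open. At these repeats mTEC-I had medians of 26.7 and 28.3, and mTEC-III of 28.6 and 40.0. Reads in these repeats come from many near-identical copies, and copy number and accessibility cannot be told apart there.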

How the data were processed

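The authors' merged peak table gives for each library a normalized signal, deposited as tags per 10000000 total tags per the file headers, with the nearest TSS and an annotation on mm9. The per-library peak lists carry a deposited findPeaks score and normalized signal. The score served to pick the best-scored peaks of each list in 1 alternative. Each library had its own HOMER findPeaks call, per the file headers (fragments of 300 bp, FDR 0.001, 4-fold over the local 10000 bp). The submitters' processing notes also name Picard 1.108 and bcl2fastq 2.15.0.4. For the aligner, duplicate removal and transposase shift, nothing is given in the sources used here.

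All deposited values were whole multiples of 0.5 tags, so read ends were recovered for 100% of values in each library. Values were divided by TMM factors of edgeR 4.0.16, computed separately for peaks and for genes, with log2(value + 1) as the scale. The filter asked for 10 or more in at least 2 of the 8 libraries. The features left were fitted with limma 3.58.1 (trend, R 4.3.3), 1 coefficient per population, and p-values were adjusted by Benjamini-Hochberg over all features, with a threshold of 0.05. An adjusted p given without another tool's name is limma's. Because the values are scaled, limma took the place of a count test, and edgeR and DESeq2 1.42.0 were run on the recovered read ends as alternatives. Gene values sum the peaks assigned to a gene within 10 kb of its TSS. Lower limits of folds take 3 read ends over both libraries as the floor and cover counting error only.

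Groups and replicate numbers came from the sample titles. Same-numbered libraries of the 2 populations did not deviate together (correlation 0.032). Named genes are the sort genes, 8 fixed regulators, up to 5 called genes per list with the largest change, the 10 largest rises and falls with a mean of at least 10, the 5 genes with the most called peaks in each direction, and every bitter receptor; named peaks have a mean of at least 20. Repeat families were chosen by size after their values were seen, as were single further genes and peaks named for contrast. The populations compared, the gene lists and the tests were chosen with earlier results of these data known. No mm9 genome was used, so no peak sequence is shown. Results for 3 genes of the lists are not reported here.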

Additional observations from a re-analysis of the deposited data

How the results depend on the processing

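The direction of the called peaks and genes held under each scaling, except for 10 less open peaks that changed sign with cyclic loess, and no median of a gene list changed sign under another scaling. edgeR on read ends called 10077 more open and 9909 less open peaks, and DESeq2 7418 and 7228. Counts moved by over 1.5 times as follows, given as more open, less open and both. For peaks they were 4981, 5169 and 10150 at an adjusted p under 0.01, and 5279, 4345 and 9624 with a filter at 20. For genes they were 548, 431 and 979 at an adjusted p under 0.01, 678, 578 and 1256 with the authors' scaling, 283, 206 and 489 with peaks within 1 kb, and 2282, 2049 and 4331 with peaks at any distance. Leaving out 1 library gave 4338 to 5847 more open, 869 to 6527 less open and 5207 to 11864 called peaks, and 433 to 651, 178 to 715 and 611 to 1346 genes; this includes fits that tested the same features as with all libraries, added after seeing the data, since many less open features otherwise fell below the filter without an mTEC-IV library. A lone library of a population was then assumed to vary like the others. Of 113 named genes that were called, 46 kept the threshold in all 4 such fits, and 54 where the same features were tested. With 50% of the merged peak covered, 20.7% of the more open and 61.6% of the less open peaks were listed in their own population's libraries only, and with the best-scored 50% of each list 7.95% and 25%. With the replicate number as a block, 8235 and 8050 peaks and 1001 and 878 genes were called, and same-numbered libraries shared only a number.

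With peaks within 1 kb, 41 of the 1037 more open and 27 of the 917 less open genes changed sign, and with peaks at any distance 39 and 43 did. Of the named genes that changed sign under some setting, Epcam and Tbl1xr1 with peaks at any distance passed the threshold. With 1 library left out, Itgb4 had log2 differences of -0.51 to 0.085, Ly6d -0.69 to 0.030, Trp63 -0.33 to 0.87 and Med13l -0.30 to 0.34, with Trp63 at -0.0044 without mTEC-IV replicate 1 and Med13l at -0.071 without mTEC-IV replicate 2. With peaks at any distance Itgb4 had 0.062, Epcam -0.55 (adjusted p = 0.00037, limma), Dsc1 0.39 and Tbl1xr1 0.56 (adjusted p = 0.000172, limma). With peaks within 1 kb Traf1 had -0.43 and Celf2 0.59. After thinning to equal depth Epcam had -0.034 and Trp63 -0.11, and with cyclic loess Med13l had -0.034. The cause was not tested. The shallowest library held 3.61e+06 tags, and thinning all libraries to it left 6616 more open and 6090 less open peaks. Whether weak features lost the most calls was not tested.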
